A study of Mus musculus with 6 samples.

Results

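The proteasome subunit genes of mouse embryonic stem cells were taken as every gene symbol in the count tables that begins with Psm, a letter from a to g and a digit. The pattern matched 53 of 33924 symbols. Of these, 48 encode parts, assembly factors or regulators of the proteasome. A further 4 are pseudogene or retrogene symbols (Psmb5-ps, Psmb6-ps, Psmb7-ps2 and Psme2b-ps), and Psmc3ip encodes a protein of meiotic recombination that shares the start of its name with the ATPase genes and no role in the particle. The pattern uses names and no measured values.

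The 26S proteasome is the protease that degrades proteins tagged with ubiquitin. Its barrel-shaped 20S core is built of rings of alpha subunits (Psma genes), which gate the entrance, and rings of beta subunits (Psmb genes), of which Psmb5, Psmb6 and Psmb7 carry the protease sites. The 19S cap sits on the core and is made of a base, whose ATPases (Psmc genes) unfold the substrate, and a lid, which removes ubiquitin. Dedicated chaperones assemble the particle, other activators can replace the cap, and immune signals exchange the catalytic subunits for Psmb8, Psmb9 and Psmb10, which gives the immunoproteasome. Embryonic stem cells are known for high proteasome activity.

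The 6 libraries come from E14, a mouse embryonic stem cell line, 3 labelled control (wild type) and 3 labelled Rif1-KO, and address how loss of Rif1, a chromatin protein of replication timing, alters RNA levels. For both groups the labels give gelatin-coated plates, 2i medium and 0.1 µM 4-OHT over 2 days followed by 1 day off the drug. The column headers, however, read 2i in the control tables and TAM in the Rif1-KO tables, so a difference in drug or medium cannot be told apart from the genotype. Whether the replicates are separate cultures, whether the Rif1-KO cells are 1 clone, and how Rif1 was disrupted cannot be read from the labels, so p-values cover only the spread between these libraries, which may be technical.

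Total counts ran from 8383632 to 10980777 per library. Values are CPM, that is, counts relative to the TMM-scaled library size, and errors of means are SD over 3 libraries. A gene is said to fall or rise where edgeR's adjusted p was under 0.05 over all 14250 genes tested. Rif1 itself stood at 677 ± 21.9 CPM in control and 623 ± 35.5 CPM in Rif1-KO (SD, n = 3), which missed the threshold in edgeR (adjusted p = 0.0509) and passed it in 9 of 14 other fits, DESeq2 among them (0.0385; lowest 2.83e-06 with an offset for GC content and length). A count over the whole gene does not show whether exons were lost, so the groups are called by their labels. The stem cell markers Pou5f1, Sox2, Nanog, Esrrb, Zfp42 and Klf4 together gave 3400 to 3440 CPM in the control libraries against 3220 to 3290 CPM in the Rif1-KO libraries. Among them Sox2 fell (683 ± 31.8 to 469 ± 19.4 CPM), Nanog (612 ± 14.7 to 662 ± 12.8 CPM) and Klf4 (286 ± 9.55 to 323 ± 3.67 CPM) rose, and Pou5f1, Esrrb and Zfp42 did not pass. Markers of trophectoderm (56.4 to 57.6 CPM against 146 to 161 CPM), primitive endoderm (15.3 to 17.3 against 29.9 to 32.5) and the 2-cell-like state (0.216 to 0.442 against 25 to 26.4) had higher sums in Rif1-KO. The trophectoderm sum was carried by Krt8 (22.5 and 74.2 CPM on average) and Krt18 (25.8 and 69.9 CPM), while Eomes did not pass (8.57 and 9.63 CPM), Elf5 was near 0 and Cdx2 at 0 in all libraries. Dab2 (3.87 and 13.1 CPM) made up most of the difference in the primitive endoderm sum, and Sox7 (0.543 and 0.0975 CPM) was too low to test. Fibroblast feeder markers gave 11.2 to 18.8 CPM per control library against 8.75 to 9.19 CPM per Rif1-KO library, mostly from Thy1 (11.3 and 5.67 CPM on average), with Lum at 0. The part of these shifts in the results below was not tested, and in bulk RNA a change in the mix of cells and a change in RNA per cell cannot be told apart.

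Most 26S subunit genes were modestly lower in Rif1-KO, and none was called higher. All 31 Psm-named genes of the core, base and lid passed the filter on low counts. Adrm1 and Shfm1, cap genes with other names, are given with the accessory genes below. Of the 31, 20 fell, 11 did not pass and 0 rose in edgeR. At an unadjusted p under 0.05, and in each of 14 other fits including DESeq2 and limma-voom, the number that rose was also 0. Over all genes tested, 50.9% were called, 24.8% as lower and 26.1% as higher, so the 26S share called lower was 64.5% beside a background of 24.8%. Among the 8010 tested genes with at least 20 CPM in control, a limit chosen after seeing the values, 33.4% were called lower. The median log2 fold change of the 31 genes was −0.18, beside 0.0035 over all genes tested. Over the tested genes with at least 20 CPM in control the median was −0.037. The changes of the 20 genes were small, between −9.07% and −26.3%. With a minimum of 1.2-fold 10 of the 31 were called lower, beside 17.8% of all tested genes called lower with that minimum.

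The sum over the 31 genes shows the same direction in every library. The 31 genes summed to 4429, 4465 and 4358 CPM in control and to 3822, 3934 and 3773 CPM in Rif1-KO. Every Rif1-KO library was thus under every control library. As a share of all counts, 26S RNA went from 0.438% to 0.386%. Libraries of the 2 groups did not overlap for 19 of the 31 genes, all with Rif1-KO lower, and overlapped for the rest. Over all genes tested the groups did not overlap for 57.2%, with Rif1-KO lower for 27.8% and higher for 29.4%. Among the 8010 tested genes with at least 20 CPM in control, Rif1-KO was lower without overlap for 2886 and higher for 2275.

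**Figure D1:**
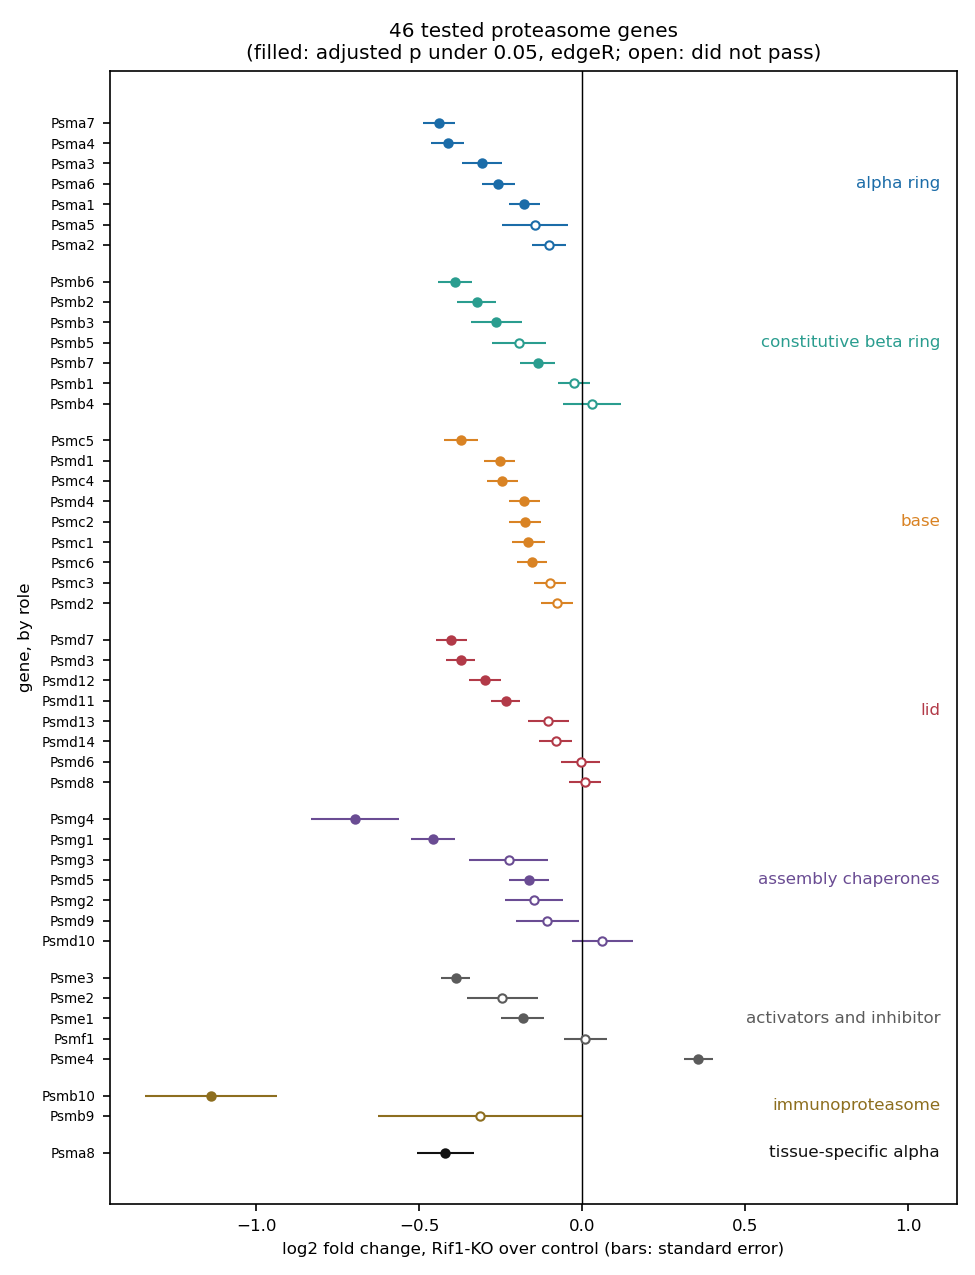
Log2 fold change (Rif1-KO over control, x axis, bars are standard errors) of the 46 proteasome genes tested, grouped by role on the y axis. Filled points passed an adjusted p of 0.05 in edgeR; nearly all lie left of 0, with Psme4 the 1 filled point to the right and Psmb10 the farthest left.

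In the alpha ring all 7 genes had a negative log2 fold change. Of these 5 fell (71.4%, beside 24.8% of all tested genes and 33.4% of those with at least 20 CPM in control). The sum of the 7 was 780.3 ± 6.35 CPM in control against 644 ± 12.6 CPM in Rif1-KO (SD, n = 3), and their median log2 fold change was −0.26. Psma7, an outer-ring subunit, had the lowest adjusted p of the ring. It was read at 165, 150 and 159 CPM in control and at 117, 120 and 114 CPM in Rif1-KO, with no overlap. This is a log2 fold change of −0.44 ± 0.05 (adjusted p = 4.02e-07). Psma4 fell by 24.9%, Psma3 by 19.2%, Psma6 by 16.3% and Psma1 by 11.6%. Psma2 (130.5 ± 7.31 and 122 ± 3.46 CPM, adjusted p = 0.106) did not pass. Psma5 had the highest adjusted p of the ring, at 36.1, 27.5 and 33.1 CPM in control and 32.6, 30.0 and 24.6 CPM in Rif1-KO (adjusted p = 0.251), where the libraries overlapped.

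In the constitutive beta ring 4 of 7 genes fell, with a median log2 fold change of −0.19 over the ring. The share of 57.1% stands beside 24.8% of all tested genes and 33.4% of those with at least 20 CPM in control. Psmb6, which carries the caspase-like site, was read at 142, 159 and 156 CPM in control and at 113, 117 and 119 CPM in Rif1-KO. All 3 Rif1-KO values lie under the lowest control value (log2 fold change −0.39 ± 0.05, adjusted p = 3.26e-06). Psmb7, with the trypsin-like site, fell by 9.07% (edgeR adjusted p = 0.0355) although its libraries overlapped. That call was lost under 5 of 14 other fits: DESeq2 (0.0842) and leaving out control replicate 1 (0.119), control replicate 2 (0.0768), or, of the Rif1-KO libraries, replicate 1 (0.077) or replicate 3 (0.126), over a range from 0.0037. Psmb5, with the chymotrypsin-like site, averaged 31.4 ± 2.37 and 27.4 ± 2.03 CPM and missed the threshold (adjusted p = 0.0587), passing without control replicate 2 (0.0242) or Rif1-KO replicate 2 (0.0447). Of the other subunits of the ring, Psmb2 fell by 20.1% and Psmb3 by 16.8%, while Psmb1 (181 ± 8.31 and 177 ± 6.42 CPM) and Psmb4 did not pass. Psmb4 varied widely within both groups, with 166, 130 and 138 CPM in control and 158, 163 and 122 CPM in Rif1-KO (log2 fold change 0.03 ± 0.09, adjusted p = 0.799), so the spread within each group exceeded the difference between their means.

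In the base 7 of 9 Psm-named genes fell, 5 of the 6 ATPase genes among them. The share of 77.8% stands beside 24.8% of all tested genes and 33.4% of those with at least 20 CPM in control. The median log2 fold change was −0.18 over the 9 genes. Psmc5 had the largest fall of the base, from 133, 129 and 132 CPM in control to 101, 108 and 95.9 CPM in Rif1-KO, without overlap (log2 fold change −0.37 ± 0.05, adjusted p = 5.28e-06). Psmc4 fell by 15.6%, Psmc2 by 11.5%, Psmc1 by 10.8% and Psmc6 by 10.1%, and Psmc3 (158 ± 5.36 and 147 ± 5.77 CPM) did not pass. The calls of Psmc2 and Psmc1 were lost when 1 library was left out: Psmc2 without Rif1-KO replicate 1 (adjusted p = 0.0514), and Psmc1 without control replicate 2 (0.0598) or without Rif1-KO replicate 2 (0.0502). Psmd1, a scaffold of the base, fell from 288 ± 11.8 to 241 ± 8.71 CPM (SD, n = 3), and Psmd4, a ubiquitin receptor, fell by 11.6%. Psmd2, the other large scaffold, was read at 313, 289 and 278 CPM in control and 278, 286 and 270.2 CPM in Rif1-KO and did not pass (adjusted p = 0.203).

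In the lid 4 of 8 Psm-named genes fell. This is 50%, beside 24.8% of all tested genes and 33.4% of those with at least 20 CPM in control. The other 4 had log2 fold changes between −0.10 and 0.0082. Psmd7, which pairs with the deubiquitinase, was read at 166, 176 and 172 CPM in control and at 126, 129 and 134 CPM in Rif1-KO. The groups are well apart (log2 fold change −0.40 ± 0.05, adjusted p = 6.85e-07). Psmd3 fell by 22.8%, Psmd12 by 18.7% and Psmd11 by 0.23 on the log2 scale, all 3 being structural subunits of the lid. Psmd14, the deubiquitinase itself, averaged 113 ± 4.35 CPM in control against 106 ± 3.93 CPM in Rif1-KO (adjusted p = 0.191). Psmd6 was read at 87.6, 80.1 and 78.9 CPM in control and 84.3, 85.9 and 75.3 CPM in Rif1-KO, fully overlapping (log2 fold change −0.0046 ± 0.06, adjusted p = 0.957). Psmd8 (192 ± 12.6 and 193 ± 3.63 CPM) and Psmd13 (107 ± 4.54 and 99.4 ± 9.82 CPM) did not pass either. Differences between the rings, base and lid in how far they fell were not tested.

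**Figure D2:**
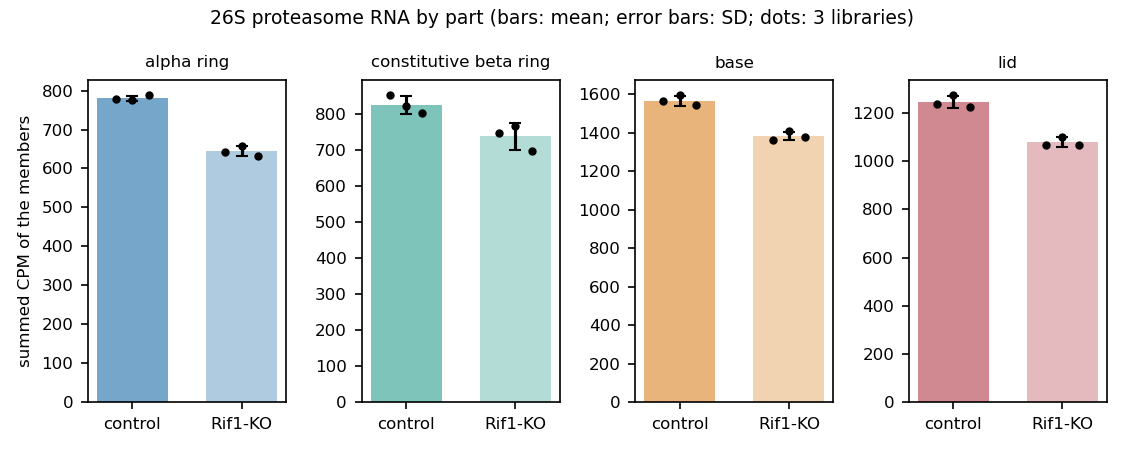
Summed CPM (y axis, from 0) of the alpha ring, constitutive beta ring, base and lid genes in control and Rif1-KO; bars are means, error bars SD, dots the 3 libraries. In each of the 4 parts every Rif1-KO dot lies under every control dot, with the closest approach in the beta ring (802 against 768 CPM).

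Per length of exon, the 31 subunit genes spanned an 8.43-fold range in control. Each complete particle holds these subunits in equal numbers, which is background and concerns protein, not RNA. The median was 87.6 CPM per kb of exon and the quartiles were 60.9 and 108 CPM per kb. Psmb6 was highest, at 191 CPM per kb in control and 146 in Rif1-KO, and Psma3 lowest, at 22.6 and 18.3 CPM per kb. In the base, levels ran from 62.6 CPM per kb for Psmc2 to 99.99 for Psmc5, and among the assembly chaperones from 6.75 CPM per kb for Psmd9 to 56.6 for Psmg1. These levels depend on the length used: with the longest transcript in place of all exons, 7 of the 46 tested proteasome genes moved by over 1.5 times. Psmc2 was then at 32.2 CPM per kb, and Psmg3, at 14.3 CPM per kb of exon, was at 5.27, the lowest of the chaperones.

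Some members share sequence with near-identical copies. Of the 48 proteasome genes, Psma5 (54.5%), Psmb5 (57.1%) and Psme2 (59.3%) share over 50% of their 50-base stretches with other annotated transcripts, 5 share 10% to 50% and 40 share less. Psmb5 and Psma5 also had the lowest counts of the 31 subunits, 31.4 and 32.2 CPM beside a median of 139 CPM. How reads that map to several places were counted is not stated, and the part of shared sequence in these low levels was not tested. Among genes named below from outside the members, Adrm1 (16.8%), Ddi2 (17.9%) and H2-D1 (14.3%) also share over 10%. Of the 15 subunit genes with no shared stretch, 11 fell, beside 20 of all 31 subunit genes and 24.8% of all tested genes.

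**Figure D3:**
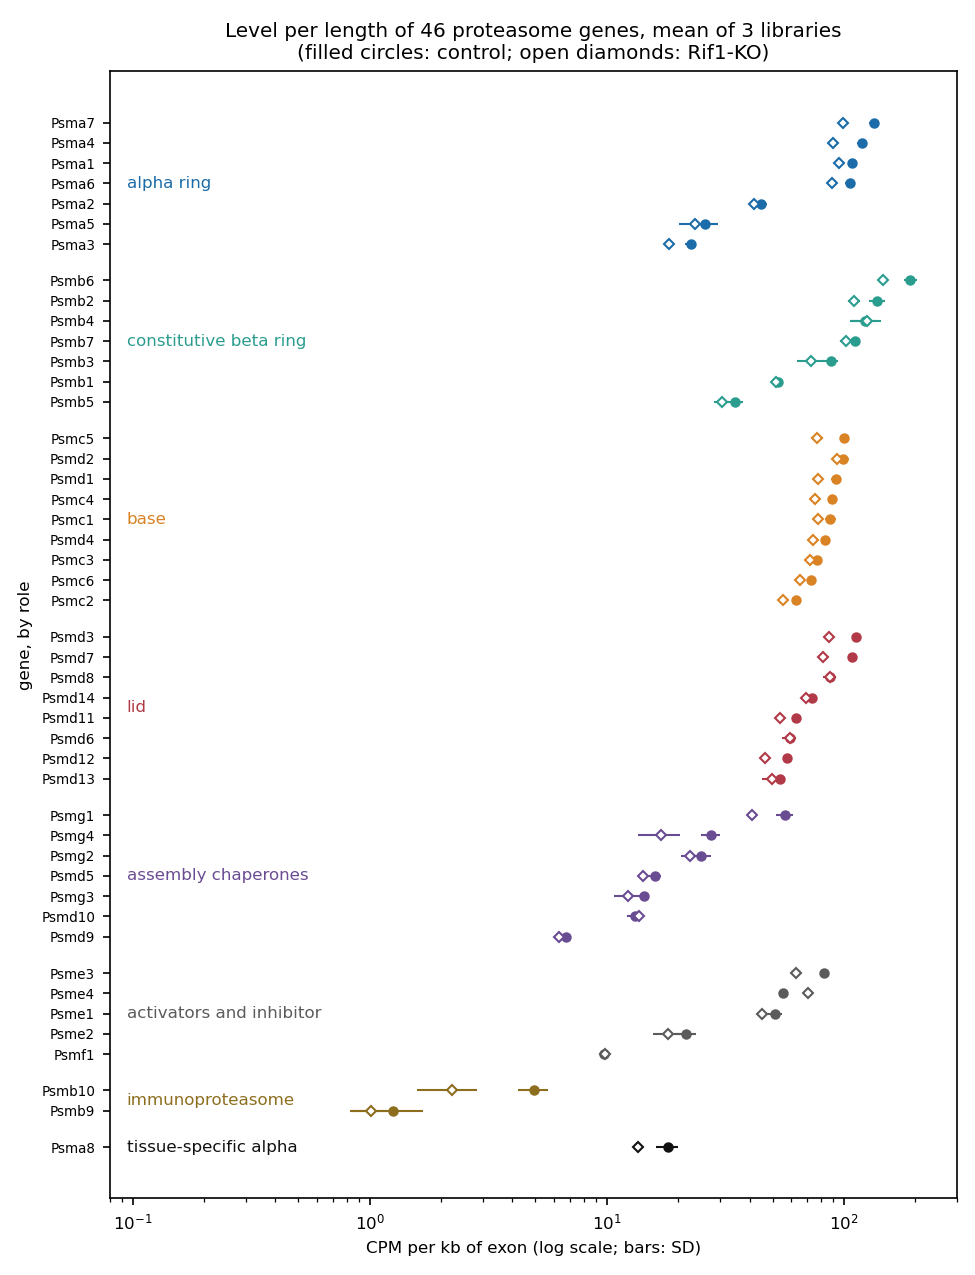
Level per length (CPM per kb of exon, log x axis) of the 46 tested proteasome genes by role; filled circles are control means, open diamonds Rif1-KO means, bars SD over 3 libraries. Subunits of the core and cap lie mostly between 50 and 200 CPM per kb, most chaperones lower, and Psmb9 and Psmb10 lowest.

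Among the 7 assembly chaperone genes 3 fell (42.9%, beside 24.8% of all tested genes) and 4 did not pass. Their median log2 fold change was −0.16. Psmg1 and Psmg4 belong to the chaperones that build the alpha ring. Psmg1 was read at 54.4, 64.2 and 58.7 CPM in control and at 42.7, 43.6 and 42.5 CPM in Rif1-KO (log2 fold change −0.46 ± 0.07, adjusted p = 1.15e-05). Psmg4 was read at 16.5, 13.7 and 15.6 CPM in control and 10.1, 10.8 and 7.22 CPM in Rif1-KO (log2 fold change −0.70 ± 0.13, adjusted p = 0.000225). In both genes the groups were separate. Psmd5, a chaperone of the base, fell by 10.7% (adjusted p = 0.0328), a call lost under 4 of 14 other fits: DESeq2 (0.106), no control replicate 1 (0.177), no Rif1-KO replicate 1 (0.116) and no Rif1-KO replicate 3 (0.0758), over a range from 0.00246. The base chaperones Psmd10 (19.03, 20.9 and 17.9 against 19.2, 20.3 and 20.8 CPM) and Psmd9 (17.5 ± 0.712 and 16.3 ± 0.736 CPM) did not pass. Neither did the core chaperones Psmg2 (32.4 ± 3.48 and 29.1 ± 2.46 CPM) and Psmg3 (12.6 ± 0.668 and 10.8 ± 1.32 CPM).

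The activators went in opposite directions. Psme4, which encodes the large single-chain activator PA200, was the 1 gene of the 46 tested proteasome genes that rose. It was read at 368, 344 and 364 CPM in control and at 460, 458 and 458 CPM in Rif1-KO, with all Rif1-KO libraries above all controls (log2 fold change 0.36 ± 0.04, adjusted p = 1.6e-06). Psme3, which encodes the nuclear activator PA28 gamma, fell from 216, 223 and 218 CPM to 167, 168 and 167 CPM (log2 fold change −0.39 ± 0.04, adjusted p = 3.71e-07). Psme1, a subunit of the interferon-inducible PA28, fell by 11.9% (adjusted p = 0.0248), a call lost under 6 of 14 other fits: DESeq2 (0.0916), an offset for GC content and length (0.394), and leaving out control replicate 2 (0.122), control replicate 3 (0.0622), or, of the Rif1-KO libraries, replicate 1 (0.0781) or replicate 3 (0.0606), over a range from 0.00652. Its partner Psme2 (21.1 ± 2.15 and 17.7 ± 2.40 CPM, adjusted p = 0.0657) did not pass. It did with no filter on low counts (0.0452), with a replicate block (0.0328) or without Rif1-KO replicate 1 (0.0399). Psmf1, which encodes the inhibitor PI31, was read at 37.7, 40.0 and 39.4 CPM in control and 40.0, 39.2 and 38.5 CPM in Rif1-KO, with a log2 fold change of 0.0098 ± 0.07.

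The immunoproteasome genes were read far below their constitutive counterparts in both groups. Psmb10, the counterpart of Psmb7, was read at 6.49, 7.41 and 5.53 CPM in control and at 2.89, 3.74 and 2.08 CPM in Rif1-KO. The groups were apart, and the log2 fold change of −1.14 ± 0.20 (adjusted p = 9.35e-05) was the farthest from 0 among the proteasome genes tested. Psmb9, the counterpart of Psmb6, was read at 2.27, 1.70 and 1.11 CPM in control and 1.26, 1.21 and 1.64 CPM in Rif1-KO, overlapping (adjusted p = 0.424). Psmb8, the counterpart of Psmb5, had 1 count over the 3 control libraries and 1 over the 3 Rif1-KO libraries and was not tested. Together these 3 genes made up 2.75%, 2.81% and 2.09% of the CPM of the 6 catalytic genes in control and 1.61%, 1.80% and 1.43% in Rif1-KO. The 5 immune cell markers gave 171 to 182 CPM per control library against 194 to 200 CPM per Rif1-KO library. Nearly all came from Laptm5, which rose (175.5 and 192 CPM on average, log2 fold change 0.13 ± 0.05, adjusted p = 0.0216). Of the other markers, Ptprc and Tyrobp had at most 1 count in any library. Cd74 (1.18 and 1.47 CPM on average) and Coro1a (1.54 and 2.33 CPM) were read in every library at low levels and did not pass.

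**Figure D4:**
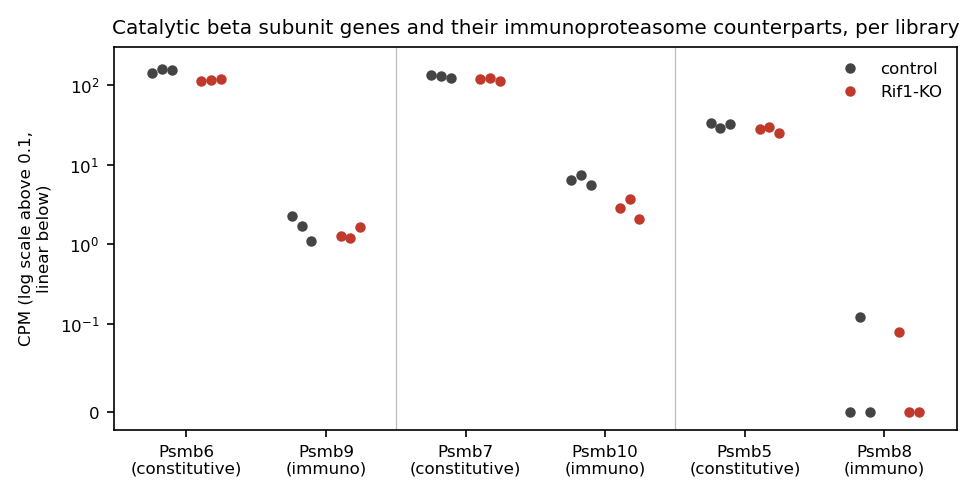
CPM of each library (y axis, log scale above 0.1 and linear below) for the catalytic genes Psmb6, Psmb7 and Psmb5, each beside its immunoproteasome counterpart Psmb9, Psmb10 or Psmb8. Constitutive genes lie between 25.3 and 159 CPM; Psmb10 is the immunoproteasome gene whose groups do not overlap.

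The tissue-restricted subunits differed in whether they were read. Psma8, an alpha subunit known from testis, was read at 33.7, 30.7 and 27.3 CPM in control and at 22.0, 23.03 and 23.7 CPM in Rif1-KO. It fell without overlap between the groups (log2 fold change −0.42 ± 0.09, adjusted p = 0.000479). The testis markers Prm1, Prm2, Tnp1, Acrv1 and Spaca1 summed to at most 0.111 CPM in a control library and 0.271 CPM in a Rif1-KO library. Psmb11, the beta subunit of the thymus, had 2 counts in each group. The 4 pseudogene or retrogene symbols had 0 to 4 counts per group and were not tested. Psmc3ip, matched by its name, was read at 22.1, 22.96 and 23.4 CPM in control and 13.01, 14.2 and 17.7 CPM in Rif1-KO, a fall with a log2 fold change of −0.62 ± 0.11 (adjusted p = 7.68e-05). In all, 46 of the 48 proteasome genes were tested. Of these, 27 fell (58.7%, beside 24.8% of all tested genes), 1 rose (2.17%, beside 26.1%) and 18 did not pass.

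Promoters were searched for motifs known from proteasome and housekeeping genes. Windows from 250 bases before to 50 after the RefSeq start (build GRCm38.p6, another build than the mm9 of the counts) were found for 40 of the 48 genes, 25 of them 26S subunits. The antioxidant-type element TGACNNNGC, the sequence recognised by the transcription factors NFE2L1 and NFE2L2 that induce proteasome genes, was searched on both strands. It occurred in 4 of the 25 subunit promoters (16%), beside 17.2% of all tested genes with a promoter sequence. These were Psmb6, Psmd12 and Psmc6, which fell, and Psmb5, which did not pass. The CCAAT box was held by 10 of 25 (40%), beside 43.3% of tested genes. The ETS core CCGGAAG was held by 10 of 25 (40%), beside 19.1% of tested genes and 23.2% of those with at least 20 CPM in control. These 10 were 5 of 8 base and 4 of 6 lid promoters, 1 of 7 alpha ring promoters and none of the 4 beta ring promoters found. Of the 10 subunits with the ETS core 7 fell (median log2 fold change −0.17), and of the 15 without it 9 fell (−0.25).

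The stretches that hold the antioxidant-type element in the 4 called genes with the lowest adjusted p are shown with the match in capitals, on either strand, as read 5′ to 3′ along the gene. Psme4, the gene that rose, lies at chr11:30771748-30771776 (+), Psmb6 at chr11:70525328-70525356 (+), Psmd12 at chr11:107479278-107479309 (+) and Psmc6 at chr14:45329577-45329625 (+). The match begins 7, 9, 247 and 227 bases before the start, in that order.
Psme4: aacctcccggcgctgcggctGCAGCGTCA
Psmb6: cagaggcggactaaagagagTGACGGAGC
Psmd12: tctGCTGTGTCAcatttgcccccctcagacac
Psmc6: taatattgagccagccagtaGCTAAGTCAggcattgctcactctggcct

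The ETS core of the 4 subunits with that motif that had the lowest adjusted p, chosen after their values were seen, is shown in the same way, at chr11:107479491-107479527 (+) for Psmd12, chr11:80428584-80428614 (+) for Psmd11, chr12:55398673-55398719 (+) for Psma6 and chr3:95042713-95042759 (−) for Psmd4. For Psma6, whose window holds 3 matches, 1 is shown. No printed match of one motif overlaps a printed match of the other, and a match describes letters and shows no binding.
Psmd12: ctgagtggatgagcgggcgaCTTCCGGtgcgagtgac
Psmd11: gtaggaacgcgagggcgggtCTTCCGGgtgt
Psma6: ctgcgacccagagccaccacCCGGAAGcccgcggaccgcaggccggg
Psmd4: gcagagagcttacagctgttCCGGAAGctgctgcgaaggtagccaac

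Among 11 proteasome-binding and accessory genes, 3 rose (27.3%, beside 26.1% of all tested genes), 1 fell (9.09%, beside 24.8%) and 7 did not pass, with a median log2 fold change of 0.03. AI314180, which encodes the proteasome adaptor ECM29, was read at 44.9, 45.3 and 49.7 CPM in control and at 72.9, 75.05 and 73.8 CPM in Rif1-KO, a rise with a log2 fold change of 0.66 ± 0.06 (adjusted p = 1.88e-08). Zfand5, a ubiquitin-binding zinc finger protein that associates with the proteasome, rose by 0.68 ± 0.06 and Akirin2, which brings proteasomes into the nucleus, by 0.37 ± 0.05 on the log2 scale. Adrm1, a ubiquitin receptor of the cap that the naming pattern does not catch, fell by 0.23 ± 0.06, a call (edgeR adjusted p = 0.00248) lost once GC content and length entered as an offset (0.0529). Pomp, the maturation factor of the core, was named with its values known and averaged 89.3 ± 2.54 and 90.0 ± 6.47 CPM. Shfm1, a lid gene that the naming pattern does not catch, was likewise named with its values known. It averaged 65.0 ± 2.48 and 66.6 ± 0.807 CPM and did not pass.

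Of 10 genes that control proteasome gene expression or its regulator NFE2L1, 3 rose, 3 fell and 4 did not pass, 30% in each direction and near the shares of 26.1% and 24.8% over all tested genes. Sel1l, a part of the endoplasmic reticulum degradation complex, fell from 100.3 ± 3.03 to 82.2 ± 1.72 CPM, and Ddi2, the protease that cleaves NFE2L1, fell from 86.3 ± 4.78 to 72.7 ± 1.65 CPM. The small Maf genes Mafk and Mafg, whose products pair with NFE2L1, rose by 0.48 ± 0.09 and 0.24 ± 0.05 on the log2 scale. Nfe2l1 itself, named after its values were seen, fell from 404.5, 409 and 401 CPM to 365, 356 and 362 CPM (log2 fold change −0.17 ± 0.04, adjusted p = 0.0031). Ngly1, also named with its values known, rose from 7.15 ± 0.593 to 9.87 ± 1.08 CPM (edgeR adjusted p = 0.00846). With DESeq2, 2 genes of the list rose, Mafk and Mafg. Nfe2l2, likewise named with its values known, averaged 136 ± 3.45 and 136 ± 7.37 CPM.

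Of 12 ubiquitin and shuttle genes 0 rose, 2 fell (16.7%, beside 24.8% of all tested genes) and 10 did not pass in edgeR. At an unadjusted p under 0.05, and in DESeq2 and limma-voom, the number that rose was also 0. Uba1, the main ubiquitin-activating enzyme, fell from 758 ± 21.1 to 636 ± 5.53 CPM, and Rad23b, which carries ubiquitinated substrates to the cap, from 348 ± 30.2 to 282 ± 15.8 CPM.

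Class I antigen processing genes, which use peptides made by the proteasome, were mostly higher, unlike Psmb10. Of 10 in the list, 6 rose (60%, beside 26.1% of all tested genes), 1 fell and 3 did not pass, with a median log2 fold change of 0.42. B2m, the light chain of class I molecules, was read at 35.1, 41.5 and 39.2 CPM in control and 76.2, 76.5 and 81.3 CPM in Rif1-KO (log2 fold change 1.01 ± 0.07, adjusted p = 1.71e-10). The heavy chain gene H2-D1 rose by 0.72 ± 0.10, the peptide loading gene Tapbp by 0.40 ± 0.07 and the peptide transporter gene Tap1 by 0.56 ± 0.10 on the log2 scale. H2-D1 shares 14.3% of its 50-base stretches with other annotated transcripts, from 103 genes. The part of shared sequence in its rise was not tested. Irf1, named with its values known and a transcription factor known to induce immunoproteasome genes, fell from 29.6 ± 1.98 to 23.8 ± 1.29 CPM. Psmb9, which lies beside Tap1 in the genome, did not pass.

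**Figure D5:**
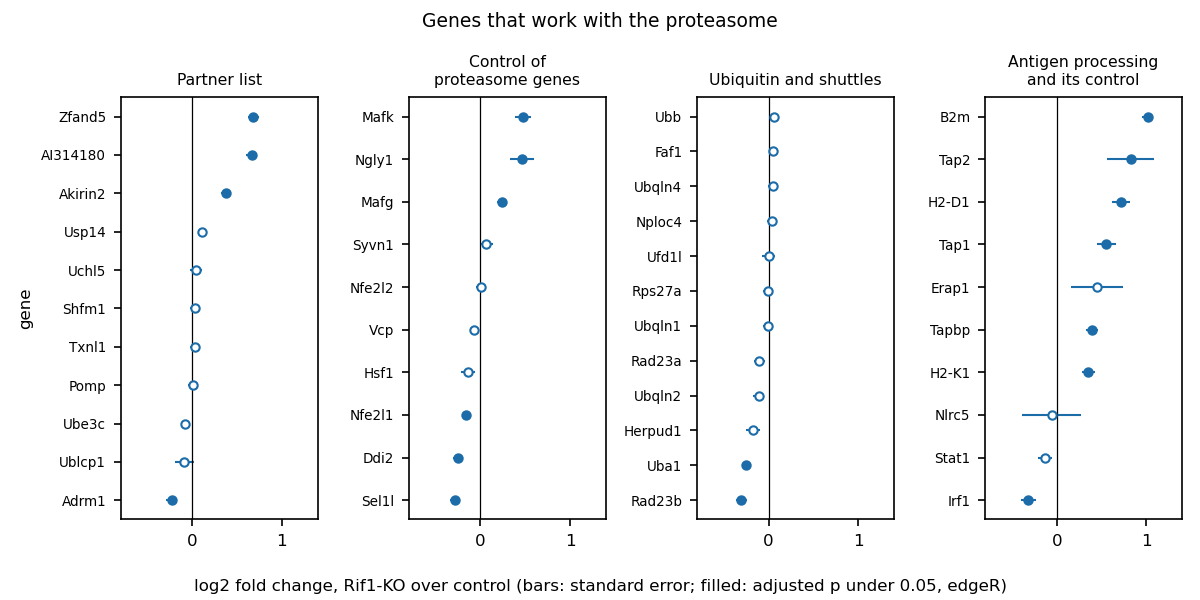
Log2 fold change (x axis, bars are standard errors) of tested genes from 4 lists of genes that work with the proteasome, 1 panel per list; filled points passed an adjusted p of 0.05 in edgeR. Points fall on both sides of 0 in each panel, and 6 of 10 antigen processing genes are filled to the right.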

How the data were processed

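RNA-seq libraries of 3 control and 3 Rif1-KO samples were used. The deposited tables hold unnormalised counts by gene symbol for each library. STAR, featureCounts 1.6.2 and the build mm9 are named in the submitters' processing notes. For the annotation, strand setting and treatment of multi-mapping reads nothing was given in the sources.

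The test was edgeR 4.0.16 (R 4.3.3): filterByExpr, TMM scaling, quasi-likelihood fit on group over all 6 libraries, and Benjamini-Hochberg adjustment over 14250 genes. The ± after a log2 fold change is its standard error. The fit was also run on simulated counts with the same spread for every gene and few changed genes. With 7251 of 14250 genes called here, that setting differs from these data and cannot vouch for the calls. Alternatives used DESeq2 1.42.0, limma 3.58.1 (voom), other scalings and filters, a replicate block, an offset for GC content and length, and leaving out each library. Exon length, GC content and shared 50-base stretches came from GENCODE M21 (GRCm38), which matched all 53 symbols; promoters came from RefSeq (42 of 53 matched).

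Members and lists were chosen with earlier results of these data known. By the naming rule, every library is given for the tested immunoproteasome and tissue-restricted members. Psmb8 and Psmb11, which were not tested, have counts per group. In each role, every library is given for the member with the lowest adjusted p and the one with the highest. The same holds for each member that passed with an absolute log2 fold change of at least 0.5. From each list outside the members, up to 4 that passed are named in order of adjusted p. Other members have means, counts, or a percent or log2 change. Genes outside the rule are marked as named with their values known. The planned protein comparison was not made. In the ubiquitin and shuttle list 2 genes are not reported here.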

Additional observations from a re-analysis of the deposited data

How the results depend on the processing

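Under 14 other fits 18 to 22 of the 31 genes were called lower, and the median log2 fold change ran from −0.22 to −0.17. Of the 28 proteasome genes called, 23 were called in every fit, and Psmb7, Psmc1, Psmc2, Psmd5 and Psme1 were lost in at least 1. Of the 18 not called, 6 passed in at least 1 fit: Psma2, Psmb5, Psmd14, Psmg2, Psmg3 and Psme2. Psmg2 passed without control replicate 3 (edgeR adjusted p = 0.042) and Psmg3 without Rif1-KO replicate 2 (0.0489). Leaving out 1 library moved the median from −0.22 to −0.17 for the 26S genes, from −0.23 to −0.17 for all proteasome genes and from −0.25 to −0.14 for the beta ring. The offset for GC content and length gave medians of −0.22 for the 26S genes and −0.22 for the lid, with 22 of the 31 lower; proteasome genes have a median exon length of 1505 bases beside 3197 over tested genes. With that offset 2 of 11 accessory genes were lower, 1 of 12 ubiquitin or shuttle genes was higher and 2 of 10 antigen processing genes were lower. Over all 14250 genes tested, 3765 were lower and 3536 higher in that fit. A minimum of 1.2-fold left 15 of the 46 tested proteasome genes lower, beside 17.8% of all tested genes. Among them were 10 of the 31 26S genes, with 3 of 7 in the alpha ring and 1 of 9 in the base. In the lists outside the members, 0 of 11 accessory, 1 of 10 control and 1 of 12 ubiquitin and shuttle genes were lower. The shares of the base and of these 3 lists were under that of all tested genes.

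Of the 32 other named genes, 12 of 479 values changed sign, all in genes near 0 that did not pass. Psmf1 was at −0.0011 with DESeq2, −0.0040 with the offset and −0.0164 to 0.0242 with 1 library left out. Psmd6 was at 0.0066 with at least 5 CPM in 3 libraries and −0.04 to 0.0490 with 1 library left out, Psmd10 at −0.0003 with the offset, and Psmb4 at −0.0476 to 0.1478 with 1 library left out. Whether libraries with the same replicate number were paired cannot be read from the labels. Correlations of their deviations from the group means were 0.079, −0.065 and 0.046, which does not settle it. With a replicate block 20 of the 31 genes were lower, with a median of −0.18. The cause of these shifts was not tested. Counts of a few reads limit Psmb8, Psmb11 and the pseudogene symbols, for which 3 counts correspond to 0.273 to 0.358 CPM per library.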
